A study of Mus musculus with 3 samples.

Results

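Epcam-positive barcodes with a strong lineage reporter and those with none were compared in the aged mouse thymus. Ccl25, Prss16, Tbata, Cxcl12 and Ctsl, which belong to the FOXN1 program, were higher in the reporter-rich barcodes of both libraries. So were the keratins Krt8, Krt18 and Krt17, while Krt7 and Krt19 did not pass. In the male library the reporter-rich levels of Ccl25, Prss16, Tbata and Cxcl12 lay below those of barcodes not called as cells. The comparison of reporter-rich with reporter-free covered barcodes of unlike makeup. Within the barcodes left over after the marked subsets were set aside, the reporter-free sums held 14 and 12 barcodes. Of these only 3 and 8 lacked signatures of another lineage. Only 1 of 4258 genes was higher there (0.0235%). None of the genes named above that could be tested passed, a count near that share. Barcodes rich in Prss16 or Psmb11 had been set aside, so low levels of the cortical genes were fixed there in both classes. The log2 changes of Krt8 and Krt18 were 1.70 there, against 1.84 and 2.14 over all barcodes, and that of Ccl25 was 0.25 against 4.21. The reporter-free barcodes were few, 39 in all, and fell into a medullary set with Aire and a mixed set in which several held the transcripts of parathyroid, plasma or mesenchymal cells.

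The samples were CD45- cells of the thymus of untreated C57BL/6 mice aged 20 months, in 3 single-cell RNA sequencing libraries. The Foxn1 lineage trace was represented by 1 library labelled female and 1 labelled male, named Foxn1Lin female and Foxn1Lin male here, and 1 male library was wild type. In the lineage trace a Cre recombinase under the control of Foxn1 removes a stop cassette before a CAG-driven tdTomato in the Rosa26 locus, so a cell that has used Foxn1, and its progeny, keep the red reporter. Both lineage trace libraries carry the Cre and the reporter allele, and the wild type carries neither. The protocol in the labels describes pooled thymi of several female animals per sample, depletion of CD45-positive cells on magnetic beads and a flow cytometry sort. As it names female mice and 2 libraries are labelled male, the number of animals behind each library is not certain. Sex and library cannot be told apart. The wild type library is CD45- in its title but carries an additional PECAM1+ in its cell type field, and it was used only as the library with no reporter.

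Members were chosen by measured values. A called barcode entered when it had more than 1000 genes, under 20% mitochondrial counts and at least 4000 unique molecular identifiers (UMIs), at least 2 UMIs of Epcam, which encodes an epithelial surface protein, and 0 UMIs of the endothelial gene Pecam1 and the fibroblast gene Pdgfra. This gate kept 350 of 8616 called barcodes in Foxn1Lin female, 370 of 3583 in Foxn1Lin male and 840 of 5478 in the wild type. Barcodes with at least 5 UMIs of the reporter transcript, counted as tdT-WPRE, were called reporter-rich, and those with 0 UMIs reporter-free. Together they were 584 of the 17677 called barcodes of the series. The female library had 234 reporter-rich and 26 reporter-free barcodes, with 90 between them at 1 to 4 UMIs. The male library had 311, 13 and 46. No gated barcode sequence was shared between libraries, and among all called barcodes the library pairs shared 3 to 14.

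As background, FOXN1 is the forkhead transcription factor on which thymic epithelial cells (TEC) depend. It drives the chemokine Ccl25, the Notch ligand Dll4 and the proteases and proteasome subunits with which cortical TEC select T cells. Medullary TEC (mTEC) include a Ccl21a-expressing set (mTEC1), which attracts thymocytes, and an Aire-expressing set (mTEC2), which displays many tissue-restricted self antigens. In age-associated TEC (aaTEC), described in the old thymus, Cldn3 marks 1 of the states. Parathyroid glands arise from the same pharyngeal pouch as the thymus, and parathyroid tissue can lie in or next to it.

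Reporter-rich barcodes were 66.9% of the gate in Foxn1Lin female (95% Clopper-Pearson interval 61.7 to 71.8) and 84.1% in Foxn1Lin male (79.9 to 87.6). Reporter-free barcodes were 7.43% (4.91 to 10.7) and 3.51% (1.88 to 5.93). These intervals, like all intervals here, cover counting error only, and the difference between the libraries was not tested. In the wild type 0 of 840 barcodes had a reporter UMI, which allows a share of up to 0.357% (3 counts of the total).

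The reporter also reached cells that should lack it. Among barcodes without Epcam and with at least 2 UMIs of Pdgfra, 0.567% in Foxn1Lin female and 1.31% in Foxn1Lin male had 5 or more reporter UMIs, at a median depth of 7684 and 9680 UMIs, against 13088 and 14280 in the Epcam gate. Among those with Pecam1 in place of Pdgfra the shares were 0.482% and 0.602%, at 6754 and 8876 UMIs. After each barcode was thinned at random to 4000 UMIs, 1 or more reporter UMIs were found in 8.85% and 7.06% of the Pdgfra barcodes and in 17.3% and 17.0% of the Pecam1 barcodes, compared with 84.0% and 88.6% in the gate. Barcodes that had not been called as cells held the reporter at 237 and 554 UMIs per 1000000 (CPM). A level of 1 to 4 UMIs therefore overlapped with that of other cell types, whereas 5 or more was rare among them. The gate also removed 201 and 93 barcodes with Epcam for a UMI of Pecam1 or Pdgfra, of which 64.2% and 79.6% had 5 or more reporter UMIs.

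The classes differed in depth. The median reporter-rich barcode had 15552 UMIs in Foxn1Lin female and 15044 in Foxn1Lin male, and the median reporter-free barcode 9588 and 8613. Median Epcam was 9 against 3.5 UMIs in Foxn1Lin female and 21 against 7 in Foxn1Lin male, and ribosomal protein genes took 12.1% against 6.55% and 11.5% against 5.83% of the UMIs. Barcodes just inside the limit, with 5 reporter UMIs, numbered 22 and 16, and those just outside it, with 4, numbered 19 and 10. The classes and depths rest on all UMIs, while the strata, the levels of genes and the tests below rest on barcodes thinned to 4000 UMIs, at which the medians of genes were 1946 and 1865 in Foxn1Lin female and 1929 and 1746 in Foxn1Lin male.

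**Figure D1:**
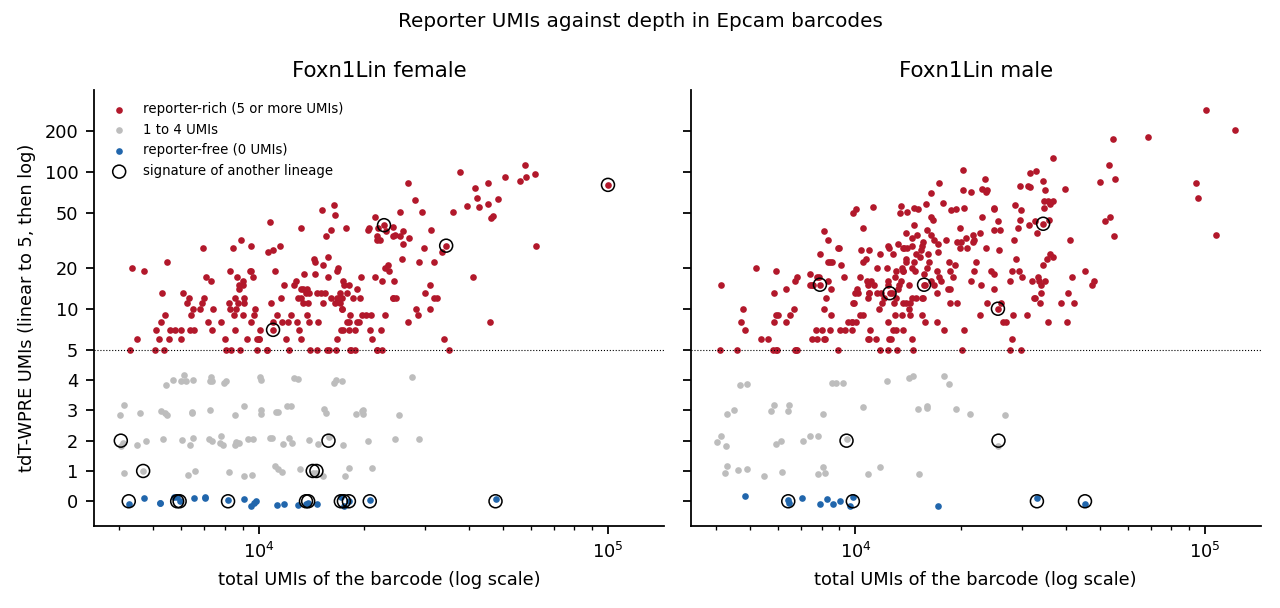
Reporter UMIs (vertical axis, linear to 5 and then on a log scale) against total UMIs on a log scale for each of the 350 and 370 gated barcodes of the Foxn1Lin libraries. Reporter-rich barcodes reach greater depths, 26 and 13 barcodes lie at 0, and open circles mark barcodes with a signature of another lineage, most of which have 4 or fewer reporter UMIs in Foxn1Lin female.

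The reporter classes were then placed on epithelial subsets. Each barcode was assigned to the first stratum it met, in the order cycling (Mki67 and Top2a, at least 2 UMIs), Aire (at least 1), Cldn3 (at least 3), Prss16 or Psmb11 (at least 4), Ccl21a (at least 10) and the rest. Reporter-free barcodes were found in the Aire stratum, where the female library had 12 of 80 barcodes and the male library 1 of 57, and in the rest, with 14 of 142 and 12 of 210. The other strata had 0. This held for classes set on all UMIs, and with classes set on the thinned reporter counts (reporter-rich from 2 UMIs) reporter-free barcodes also lay in other strata. The cycling stratum then held 6 of the 17 female barcodes and 3 of the 12 male ones (35.3% and 25%), the Cldn3 stratum 1 in each library, the cortical stratum 1 of 57 in Foxn1Lin female and the Ccl21a stratum 1 of 62 in Foxn1Lin male. The Aire stratum held 22 of 80 and 12 of 57 (27.5% and 21.1%). With classes on all UMIs, for the cortical stratum of Prss16 or Psmb11, 0 of 57 barcodes in Foxn1Lin female allows up to 5.26%, and for the Ccl21a stratum of Foxn1Lin male 0 of 62 allows up to 4.84%. The smallest stratum, of 10 barcodes, allows up to 30.0%, so an absence from the small strata was not detectable at this depth.

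The reporter-rich share was lowest in the Aire stratum of Foxn1Lin female, where 45% of barcodes were reporter-rich (33.8 to 56.5), against 93.0% in the cortical stratum (83.0 to 98.1). Foxn1Lin male had 77.2% (64.2 to 87.3) and 90.0% (55.5 to 99.7), and these intervals overlapped. The Aire stratum was not lowest throughout. In the cycling stratum 64.7% and 75.0% of 17 and 12 barcodes were reporter-rich, the latter below the Aire share of Foxn1Lin male. From 3 reporter UMIs the cycling share stayed at 64.7% and 75.0% and the Aire share was 68.8% and 93.0%, and with classes on thinned counts the cycling share was 41.2% and 58.3% and the Aire share 48.8% and 52.6%. In the Cldn3 stratum, which carries the aaTEC1 marker, 83.3% and 100% of 24 and 19 barcodes were reporter-rich. The level of the reporter was lowest in the cycling and Aire strata and highest in the Cldn3 stratum of both libraries, with 425 and 627 CPM in the Aire stratum, 338 and 521 in the cycling stratum, 983 and 1282 in the Ccl21a stratum, 1285 and 1025 in the cortical stratum and 1427 and 1961 in the Cldn3 stratum. The Aire barcodes had a median of 13584 and 21816 UMIs, against 13088 and 14280 in the whole gate. Within the Aire stratum of Foxn1Lin female the reporter-free barcodes had 4716 to 14711 UMIs with a median of 8067.5, and the reporter-rich ones a median of 17667. The part of depth in these levels was not tested.

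**Figure D2:**
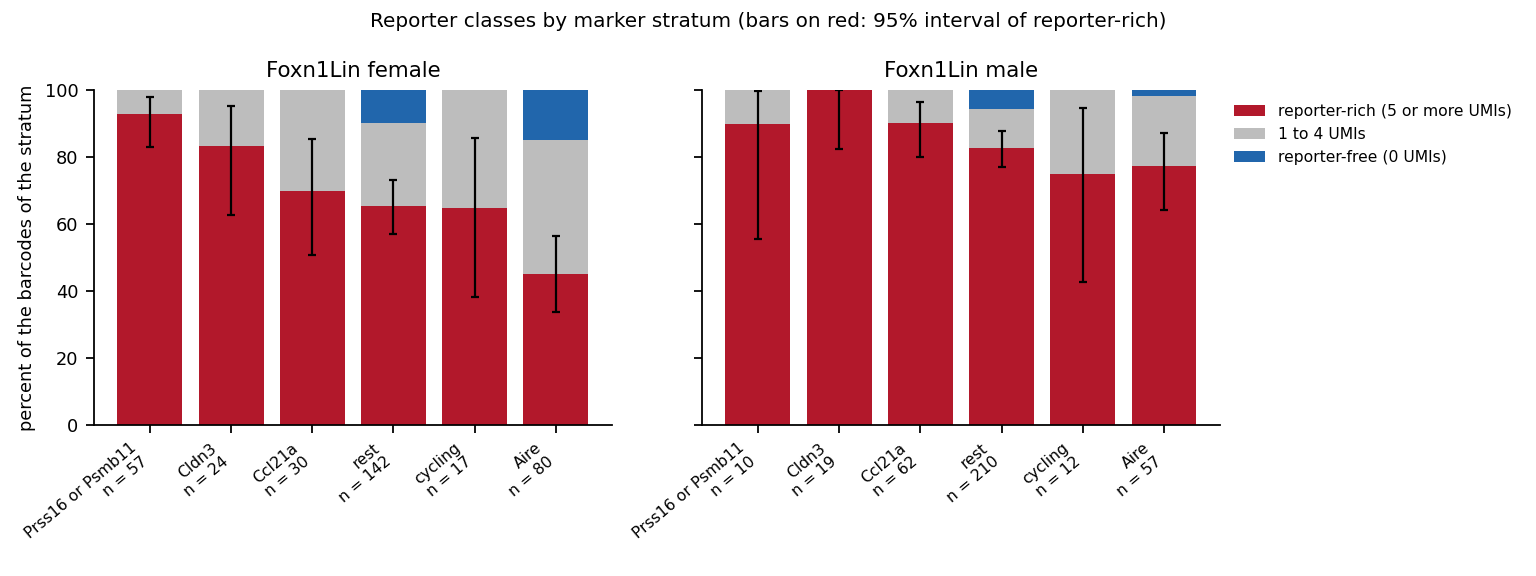
Percent of the barcodes of each marker stratum (bars, vertical axis) that were reporter-rich, had 1 to 4 reporter UMIs or were reporter-free in the Foxn1Lin libraries, with 95% Clopper-Pearson intervals for the reporter-rich share. Reporter-free barcodes appear in the Aire stratum (15.0% and 1.75%) and in the rest (9.86% and 5.71%), and the reporter-rich share of Foxn1Lin female is lowest in the Aire stratum (45%) and that of Foxn1Lin male in the cycling stratum (75.0%).

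Epcam alone did not make a reporter-free barcode one of thymic epithelium. Signatures of another lineage were found in 11 of 26 reporter-free barcodes of Foxn1Lin female (42.3%, 23.4 to 63.1) and in 4 of 13 of Foxn1Lin male (30.8%, 9.09 to 61.4). Such signatures were present in 4 of 234 and 5 of 311 reporter-rich barcodes (1.71% and 1.61%) and in 18 of 840 gated wild type barcodes (2.14%). The limits of the signatures were set after the values had been seen. Since the data went against the label for these barcodes, the reporter-free class is named by its rule and not as thymic epithelium.

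The 11 barcodes of Foxn1Lin female were 4 with at least 500 immunoglobulin UMIs, as in plasma cells, 3 with genes of fibroblasts or mesothelium, 2 of the T lineage and 2 parathyroid. Those of Foxn1Lin male were 1 each of plasma cells, fibroblasts or mesothelium, parathyroid, and endothelium or mural cells. The 3 parathyroid barcodes held 473, 346 and 1301 UMIs of Gcm2, Pth, Casr and Chga among their 4000, and the 5 plasma cell barcodes held 1845 to 2816 immunoglobulin UMIs. Doublet scores were among the highest of the library in 2 of 26 and 2 of 13 reporter-free barcodes, and in 6 of 234 and 32 of 311 reporter-rich ones. No barcode had been removed for its score.

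Without those signatures 15 reporter-free barcodes remained in Foxn1Lin female, 12 in the Aire stratum and 3 in the rest, and 9 remained in Foxn1Lin male, 1 in the Aire stratum and 8 in the rest. In reporter-rich barcodes the Aire stratum held 36 of 230 and 44 of 306. Of the 3 female barcodes in the rest, 1 held 43 UMIs of the goblet list, 1 held 38 UMIs of the tuft list with Dclk1 and Gng13 among its leading genes, and 1 was led by Krt14, with 57 UMIs of the mTEC1 list and 98 of the keratins. The male Aire barcode held 57 UMIs of the mTEC2 list (Aire, Fezf2, Cd80 and Ubd) and 226 of MHC class II. A further 3 male barcodes held 11 to 20 UMIs of the mTEC2 list, and 3 held only 2 to 5 UMIs of MHC class II.

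**Figure D3:**
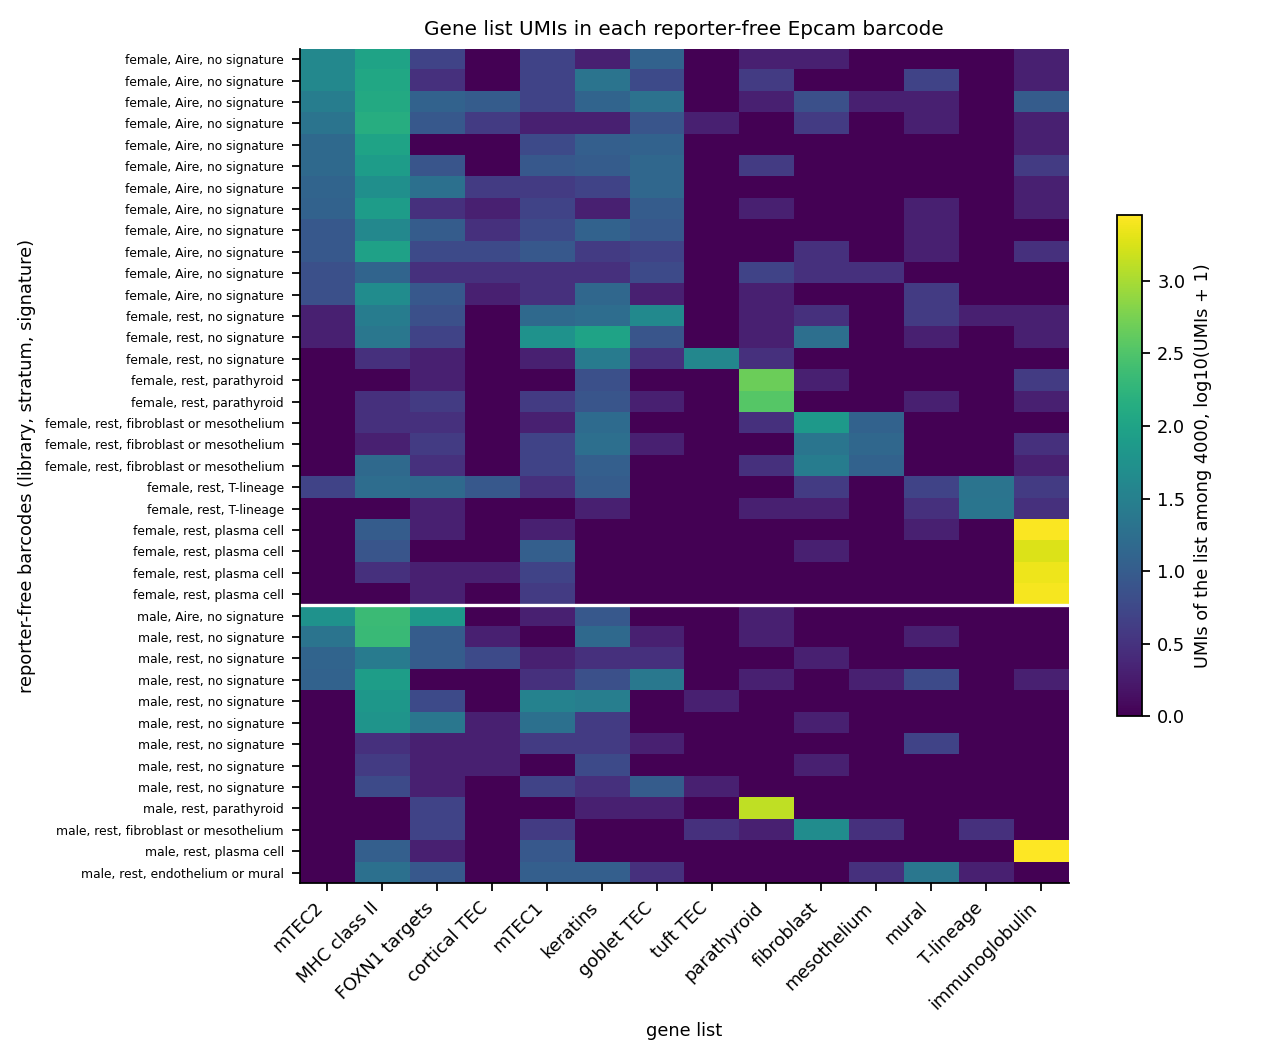
Each row is 1 of the 39 reporter-free barcodes and each column a gene list. The colour is the UMIs of the list among 4000, as log10(UMIs + 1). The 3 parathyroid and 5 plasma cell barcodes stand out in their own lists, and the Aire barcodes carry UMIs of the mTEC2 and MHC class II lists.

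MHC class II, with which TEC present peptides to CD4 thymocytes, varied among the reporter-free barcodes that lacked another signature, from 2 to 141 UMIs among 4000 in Foxn1Lin female and from 2 to 226 in Foxn1Lin male. The median over reporter-rich barcodes was 43 UMIs in Foxn1Lin female and 50 in Foxn1Lin male. Over all reporter-free barcodes it was 19 and 18, and over those without signatures 79 and 60. The gated wild type barcodes had a median of 39. For keratins the order was different, with 21 and 19 UMIs in reporter-rich, 8 and 3 in all reporter-free and 10 and 5 in reporter-free barcodes without signatures, against 12 in the wild type. Immediate early genes, which dissociation of tissue also induces, had 33 and 37 UMIs in reporter-rich and 11 and 6 in reporter-free barcodes without signatures.

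To ask which genes differed, the 4000 UMIs of each barcode were summed within library and class, and the 4 sums were compared with edgeR's quasi-likelihood test with the library as block. The female sums came from 234 and 26 barcodes and the male sums from 311 and 13. Each library was the only 1 of its sex. The fit left 1 residual degree of freedom per gene, so the spread behind each p-value was drawn almost wholly from the other genes (119.6 prior degrees of freedom), and replication was limited to these 2 libraries. Of 8455 genes, 87 were higher in reporter-rich barcodes (1.03%) and 144 lower (1.7%) at an adjusted p under 0.05, together 2.73%, and the median over all genes was 0.15 on the log2 scale. With DESeq2 7 were higher and 25 lower, and with edgeR without the library block 0 were higher and 1 lower (448 and 404 at an unadjusted p under 0.05).

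The lower calls rested on few barcodes. In 71 of the 144 at least 50% of the UMIs of the reporter-free sum of Foxn1Lin female came from 1 barcode, and in 126 that was so in Foxn1Lin male. Without the barcodes of other lineages 50 genes were higher (0.646%) and 51 lower (0.659%), of which 35 and 41 had been called with all barcodes. This setting and its limits were chosen after seeing the data. The filter on low counts let 73 of the 144 lower genes enter through the reporter-free sums alone and 15 of the 87 higher genes through the reporter-rich sums alone, so these had to differ to be tested. With no filter 60 of the 144 and 87 of the 87 were called. All 87 higher genes and 133 of the 144 lower ones had the same direction in both libraries.

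Genes of the FOXN1 program were among the higher ones. Ccl25 is a chemokine that draws progenitors into the thymus and Cxcl12 is a chemokine for the immature thymocytes of the cortex. Prss16 encodes a cortical serine protease and Ctsl encodes cathepsin L, which trims peptides for MHC class II. Tbata is a gene of cortical TEC. The windows from 250 bases before to 50 bases after the annotated start of 4 of these genes are printed because the letters of the FOXN1 core, GACGC on either strand (GCGTC in reverse), were searched in them. They come from RefSeq on GRCm38.p6, which held 4 of the 5 genes (not Prss16), and capitals mark a match. The windows are those of Ccl25 (chr8:4324960-4325259, plus strand), Cxcl12 (chr6:117168285-117168584, plus), Tbata (chr10:61171714-61172013, plus) and Ctsl (chr13:64370471-64370770, minus). The RefSeq start of Ctsl lies inside the gene as GENCODE gives it, so that window is within the GENCODE gene.
Ccl25: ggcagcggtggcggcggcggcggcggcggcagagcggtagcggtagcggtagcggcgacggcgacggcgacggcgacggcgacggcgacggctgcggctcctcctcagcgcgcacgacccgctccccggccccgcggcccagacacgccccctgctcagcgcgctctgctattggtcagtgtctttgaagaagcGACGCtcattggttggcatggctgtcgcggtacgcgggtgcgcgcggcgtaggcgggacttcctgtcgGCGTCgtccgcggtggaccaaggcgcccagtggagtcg
Cxcl12: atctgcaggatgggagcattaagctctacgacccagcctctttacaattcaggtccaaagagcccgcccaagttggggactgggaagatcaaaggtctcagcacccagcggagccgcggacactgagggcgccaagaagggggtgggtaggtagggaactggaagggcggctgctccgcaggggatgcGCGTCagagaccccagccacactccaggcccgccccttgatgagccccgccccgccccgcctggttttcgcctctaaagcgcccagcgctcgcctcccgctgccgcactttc
Tbata: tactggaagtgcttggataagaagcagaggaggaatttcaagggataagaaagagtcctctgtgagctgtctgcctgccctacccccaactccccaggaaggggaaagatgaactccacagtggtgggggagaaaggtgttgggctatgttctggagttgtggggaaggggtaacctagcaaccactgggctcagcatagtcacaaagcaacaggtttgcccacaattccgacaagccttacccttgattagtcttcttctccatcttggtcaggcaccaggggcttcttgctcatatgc
Ctsl: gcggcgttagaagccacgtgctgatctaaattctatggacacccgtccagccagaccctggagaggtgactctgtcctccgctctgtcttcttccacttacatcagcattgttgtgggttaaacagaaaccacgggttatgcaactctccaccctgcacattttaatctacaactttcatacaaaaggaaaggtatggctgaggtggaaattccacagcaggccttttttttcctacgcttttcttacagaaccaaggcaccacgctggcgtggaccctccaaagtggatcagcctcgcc
Ccl25 held 2 matches and Cxcl12 1, while the windows of Tbata and Ctsl, and that of a second start of Ccl25, held 0. The letters occur in 8932 of 32851 promoter windows of the same length (27.2%), so a match is a description of the sequence and not a binding site.

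Ccl25 (chr8:4325210-4360020) had 943 UMIs in the reporter-rich and 6 in the reporter-free sum of Foxn1Lin female, and 186 and 0 in Foxn1Lin male. This was 1008 against 57.7 CPM and 150 against 0 CPM, a log2 change of 4.21 (SE 0.56, edgeR adjusted p = 8.99e-09). Prss16 had 1025 and 6 UMIs in Foxn1Lin female and 128 and 0 in Foxn1Lin male (log2 change 4.26, SE 0.58, edgeR adjusted p = 1.12e-08). Each was found in 5 of 26 reporter-free barcodes of Foxn1Lin female and in 0 of 13 of Foxn1Lin male. Tbata had 1795 and 18, and 180 and 1 UMIs (log2 change 3.32, SE 0.47, edgeR adjusted p = 4.45e-08). Uncalled barcodes of Foxn1Lin male held Ccl25, Prss16 and Tbata at 227, 130 and 325 CPM, above the reporter-rich levels of 150, 103 and 145 CPM. In Foxn1Lin female they held 347, 284 and 695 CPM, below the reporter-rich levels of 1008, 1095 and 1918 CPM. The part of this background was not tested.

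Cxcl12 (chr6:117168535-117181367) was at 0 in both reporter-free sums, with 315 and 116 UMIs in the reporter-rich ones. At the reporter-rich level 39.8 UMIs would have fallen in the reporter-free sums, so it was at least 13.3-fold higher, taking 3 counts over both sums as the floor (edgeR adjusted p = 5.46e-07). It was found in 89 of 234 and 69 of 311 reporter-rich barcodes, a rate at which 12.8 of the 39 reporter-free ones would have held it. Uncalled barcodes of Foxn1Lin female and Foxn1Lin male held Cxcl12 at 480 and 226 CPM. Its reporter-rich levels were lower, at 337 and 93.2 CPM, and the part of this background was not tested. It entered the test through the reporter-rich sums alone. Ctsl (chr13:64359337-64370890) had 2832 against 27 and 2673 against 39 UMIs, or 3026 against 260 CPM and 2149 against 750 CPM. Its log2 change of 2.51 (SE 0.39, edgeR adjusted p = 7.42e-07) was larger in Foxn1Lin female, at 3.54, than in Foxn1Lin male, at 1.52, and 21 of the 39 male reporter-free UMIs lay in 1 barcode. The difference between the libraries was not tested. Psmb11, the thymoproteasome subunit, had 262 and 21 UMIs against 0 and 0 but was too low for the test.

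Of the 13 genes of FOXN1 targets and thymopoietic factors, 11 were tested, 5 were higher and 0 lower, against 1.03% of all genes higher, and their median log2 change was 2.51, against 0.15. Without the signatures of other lineages the 5 were called again and Ccl19, a chemokine of the medulla, was lower (-1.39, edgeR adjusted p = 0.0448). Of its 78 male reporter-free UMIs 71 lay in 1 Aire barcode, it had 351 against 450 CPM in Foxn1Lin female, and within the rest it was at 1.05 (edgeR adjusted p = 0.831). Foxn1 itself did not pass the test, with 76 against 3 and 47 against 1 UMIs (log2 change 1.30, edgeR adjusted p = 0.638). Neither did the thymopoietic cytokines Il7 (2.58, edgeR adjusted p = 0.156) and Kitl (-0.92, edgeR adjusted p = 0.546). Pax1, a factor of the pharyngeal pouch, was the 1 of 8 tested TEC identity factors that passed, at 1.93 (SE 0.55, edgeR adjusted p = 0.029), and it did not pass without the signatures (edgeR adjusted p = 0.309).

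These levels followed the epithelial subsets. In the cortical stratum the reporter-rich barcodes of Foxn1Lin female had 3939 CPM of Ccl25 and 7217 CPM of Tbata, and in the Aire stratum 444 and 438. For Ctsl the cortical stratum had 10849 and 10278 CPM in Foxn1Lin female and Foxn1Lin male, the Ccl21a stratum 1440 and 2647, and the Aire stratum 396 and 170. No reporter-free barcode fell into the cortical or the Ccl21a stratum. The same test was therefore run within strata that had at least 10 barcodes of each class in both libraries. This was 1 stratum, the rest, which is a remainder and not a subset of its own, with 93 reporter-rich and 14 reporter-free barcodes in Foxn1Lin female and 174 and 12 in Foxn1Lin male. By its construction it holds no barcode with 4 or more UMIs of Prss16 and Psmb11 or with 10 or more of Ccl21a, so low levels of the cortical genes and of Ccl21a were fixed there in both classes.

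Within the rest 1 of 4258 genes was higher in reporter-rich barcodes (0.0235%) and 8 were lower (0.188%), with a median of 0.07 over all genes. At an unadjusted p under 0.05 there were 188 and 150. None of the 8 tested FOXN1 targets and thymopoietic factors passed, and their median log2 change was 0.70. Cxcl12 had 73 against 0 and 79 against 0 UMIs (edgeR adjusted p = 0.166), and Ccl25 had 21 against 4 and 25 against 0 (log2 change 0.25, edgeR adjusted p = 0.98). Ctsl had 801 against 393 CPM in Foxn1Lin female and 2282 against 813 CPM in Foxn1Lin male (1.13, edgeR adjusted p = 0.34). Tbata was at -0.11 (edgeR adjusted p = 0.99), and Prss16, with 15 against 2 and 27 against 0 UMIs, was too low for the test. Krt8 and Krt18 were both at 1.70 with an edgeR adjusted p of 0.0867, and 0 of 7 tested keratins passed. A p above the limit does not show equal levels, since the reporter-free sums came from 14 and 12 barcodes.

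The genes called within the rest are named after their values were seen. The higher one was Fabp5, a fatty acid binding protein gene, with 2349 against 161 CPM in Foxn1Lin female and 1307 against 208 CPM in Foxn1Lin male (3.11, SE 0.40, edgeR adjusted p = 0.0109). The lower ones were Jchain, Mzb1, Igkc, Ighg2b and Ighg2c of plasma cells, Chga, Vim and Nsun7. Jchain, Mzb1, Ighg2b and Nsun7 entered the test there through the reporter-free sums alone and had to differ. Signatures of another lineage were carried by 11 of the 14 and 4 of the 12 reporter-free barcodes of the rest. Without them 3 and 8 were left, 3 of 4199 genes were higher (0.0714%) and 7 lower (0.167%), and the median over all genes was 0.32. Fabp5 was called again, and Wfdc18 was among the higher genes. The 8 lower genes were not called again. The lower ones were Csmd1 (-2.83), Fcgbp (-2.05) and Robo1 (-2.24), with Akap6, Cr2, Inpp5d and Unc5c, which entered through the reporter-free sums alone. Fcgbp, a mucus protein gene of the goblet list, had 150 against 50 and 279 against 36 UMIs (edgeR adjusted p = 0.0113). It rested mainly on 1 reporter-free barcode of each library. The goblet list had 43, 7 and 2 UMIs in the 3 female ones, and the barcode with 43 was led by Csmd1 and Fcgbp. In Foxn1Lin male 1 barcode held 23 UMIs of that list. The FOXN1 list had 0 of 8 called, at a median of 1.18.

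As a value with no test, the reporter-rich barcodes were also restricted to the Aire stratum and the rest, where both classes were found, and the reporter-free sums were then weighted to their mix of these strata. The values are on the scale of log2(CPM + 10), averaged over the libraries. The difference of Ccl25 went from 3.95 to 2.66 with the restriction and was 2.61 after the weighting. That of Prss16 went from 3.76 to 1.60 and 1.70, of Tbata from 2.90 to 1.19 and 1.36, of Ctsl from 2.50 to 1.33 and 1.31, and of Krt8 from 1.81 to 1.62 and 1.72. The restriction thus moved these values more than the weighting. That of Ccl21a went from 3.96 to 0.23 and 0.20, which the leaving out of the Ccl21a stratum fixed. The direction was kept by 48 of 48 named genes, but these had been picked for their changes in the same barcodes. Of them 11 had 0 UMIs in both reporter-free sums, so the weighting could not turn them. The count is therefore no test of makeup. Those strata cover 129 of the 234 and 218 of the 311 reporter-rich barcodes, and the male Aire stratum holds 1 reporter-free barcode.

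Ccl21a, which mTEC1 use to attract thymocytes, had 967 against 21 UMIs in Foxn1Lin female and 2962 against 2 in Foxn1Lin male. Its log2 change was 3.49 (SE 0.44, edgeR adjusted p = 6.82e-10). It was the 1 of 5 mTEC1 genes that passed, against 2.73% of all genes, and its near-identical copies make the count of this gene uncertain. Since Ccl21a also defines a stratum, these sums describe the same barcodes again. Within the rest it was at -0.85 (edgeR adjusted p = 0.85), with 26 against 16 and 87 against 2 UMIs. In the mTEC2 list 0 of 4 genes passed with all barcodes, with a median of -0.59, a count near that share. Ubd, a ubiquitin-like gene of Aire-stage mTEC, was lower in reporter-rich barcodes once the signatures were left out (-1.29, edgeR adjusted p = 0.0395). Of its 81 male reporter-free UMIs 55 lay in 1 Aire barcode, and within the rest without signatures it was at -0.02 (edgeR adjusted p = 0.999).

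Krt8 and Krt18, keratins of simple epithelia, were higher in reporter-rich barcodes over all strata. Krt18 had 3112 against 66 UMIs in Foxn1Lin female and 2787 against 32 in Foxn1Lin male, or 3325 against 635 CPM and 2240 against 615 CPM (log2 change 2.14, SE 0.36, edgeR adjusted p = 1.22e-05). Krt8, its partner in the filament, had 2245 against 567 CPM and 1912 against 596 CPM (1.84, SE 0.35, edgeR adjusted p = 0.000151). Krt17 was also higher (1.95, SE 0.37, edgeR adjusted p = 0.000127). Of 8 tested keratins 3 were higher and 0 lower, with a median of 0.74, and the same 3 passed without the signatures, against 1.03% and 0.646% of all genes higher. The basal keratins Krt5 (0.97, edgeR adjusted p = 0.285) and Krt14 (0.27, edgeR adjusted p = 0.927) did not pass, and neither did Krt7 (0.51, edgeR adjusted p = 0.81) and Krt19 (-1.14, edgeR adjusted p = 0.47), which simple epithelia also use.

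Of all genes 1.03% were higher, and 0.646% without the signatures. Of 10 tested junction genes, Dsp, which encodes the desmosomal plaque protein desmoplakin, and the proteoglycan gene Sdc4 were higher (1.44 and 1.28, edgeR adjusted p = 0.0248 and 0.0422). Neither passed without the signatures. Among 10 immediate early genes Egr1 and Ier2 were higher (1.21 and 1.63), and without the signatures Egr1, Fos, Fosb and Atf3. Among 7 heat shock genes Dnajb1, Hspa1a and Hspa1b were higher (1.98, 1.83 and 1.59), of which Hspa1a and Hspa1b are near-identical copies with uncertain counts. Without the signatures Dnajb1 and Hspa1a were called again and Hspa1b was not (edgeR adjusted p = 0.147).

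None of the 9 MHC class II genes passed the test in either setting, with a median of 0.12, but only 2.73% of all genes passed and a count of 0 of 9 is near that share. Cd74, the invariant chain, had 5232 against 3692 CPM in Foxn1Lin female and 8264 against 7423 CPM in Foxn1Lin male (0.33, edgeR adjusted p = 0.87). None of 7 NF-kB receptors and transducers (median -0.08), 8 growth factor receptors (0.51) and 11 interferon genes (0.52) passed with all barcodes. Without the signatures the interferon-induced gene Ifi27 was higher (2.00, edgeR adjusted p = 0.0313). In the aaTEC1 list Krt8 passed of 4 tested genes, and in the aaTEC2 list of 6 Krt18 was higher and Lgals1 lower, the latter not without the signatures (-0.26, edgeR adjusted p = 0.984). With all barcodes none passed among the tested genes of proliferating, basal or cornified, goblet, microfold, neuroendocrine and tuft TEC. The long noncoding transcript of the locus that carries the reporter, Gt(ROSA)26Sor, had 38 against 4 and 59 against 0 UMIs and did not pass (0.81, SE 0.93, edgeR adjusted p = 0.862).

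The highest changes outside the lists were in genes with 0 UMIs in both reporter-free sums. The glutamate receptor gene Grm8 had 139 and 130 UMIs in the reporter-rich sums and was at least 6.96-fold higher, found in 56 and 55 barcodes (8.52 expected among the reporter-free ones). All of these genes entered the test through the reporter-rich sums alone, and the bounds count UMIs and not barcodes. Pyy, an enteroendocrine peptide, Lyz1, a Paneth cell lysozyme, and Fabp6, an ileal bile acid carrier, were also at 0 there. Their UMIs lay in few reporter-rich barcodes, 6 and 9 for Pyy, 17 and 19 for Lyz1, 11 and 9 for Fabp6 and 8 and 4 for Fabp9, a testis fatty acid binding protein gene. At these rates 1.04, 2.68, 1.60 and 1.06 of the 39 reporter-free barcodes would have held them, so a lower level in the reporter-free barcodes was not detectable for these 4 genes. Bin1, Dipk1a, Cldn9, Gclm and Ptn were at least 3.21- to 3.98-fold higher and would have been found in 4.29 to 9.12 barcodes, and Otog had 156 against 1 and 209 against 0 UMIs. Uncalled barcodes held Ptn at 115 and 459 CPM, above its reporter-rich levels of 58.8 and 67.5 CPM. When the classes were set on thinned reporter counts, Bin1 and Fabp9 turned to -0.36 and -0.52.

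**Figure D4:**
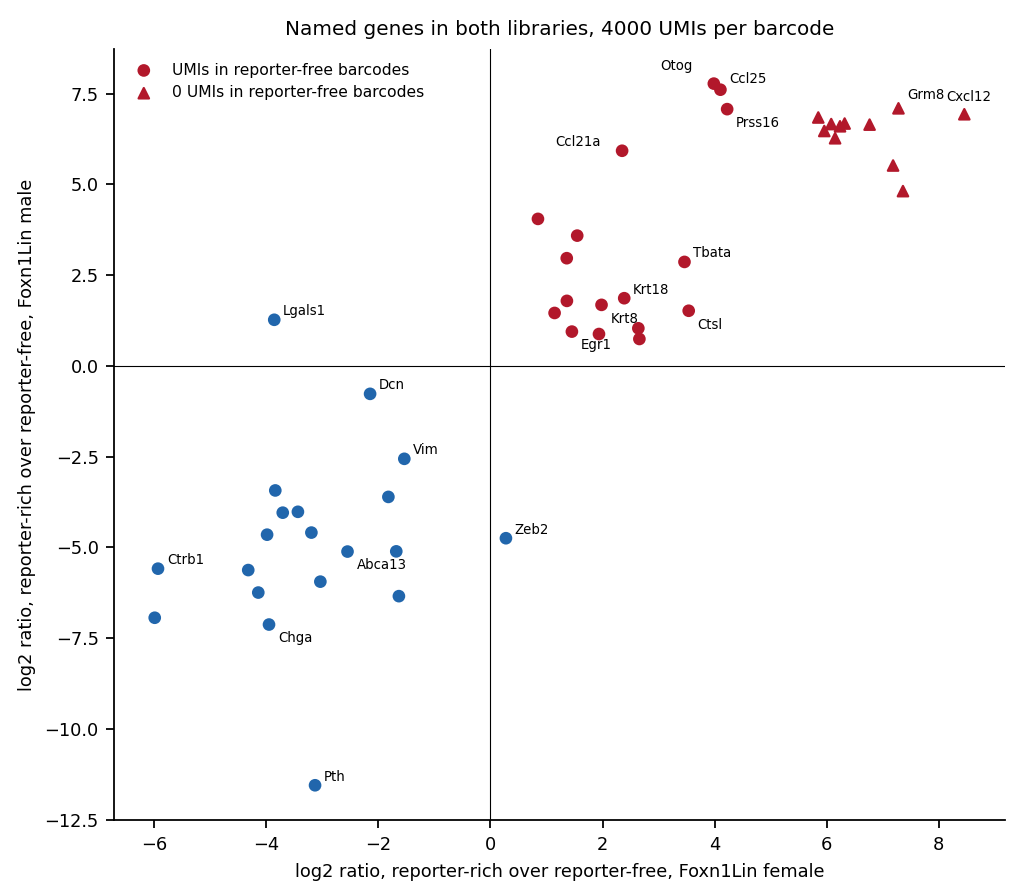
Log2 ratio of reporter-rich over reporter-free CPM in Foxn1Lin female (horizontal axis) and Foxn1Lin male (vertical axis) for the 48 named genes. Genes of the FOXN1 program and the keratins lie above 0 on both axes, Pth, Chga and Jchain below 0 on both, and Lgals1 and Zeb2 have opposite signs.

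Genes of the other lineages were among those lower in reporter-rich barcodes. Pth, the parathyroid hormone gene, had 523 UMIs in the reporter-rich and 509 in the reporter-free sum of Foxn1Lin female, and 7 and 998 in Foxn1Lin male. Its log2 change was -6.84 (SE 0.80, edgeR adjusted p = 4.35e-11). In the reporter-free sums 302 of the 509 and 995 of the 998 UMIs came from 1 barcode, and uncalled barcodes of Foxn1Lin female held Pth at 4068 CPM. Chga, a granin of secretory granules, and Casr, the calcium-sensing receptor, fell by 5.49 and 3.75 with it. Casr entered the test through the reporter-free sums alone. One reporter-rich barcode of Foxn1Lin female also carried the parathyroid signature.

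Jchain and Mzb1, both of plasma cells, were at -6.43 and -4.67. Dcn of fibroblasts was lower too (-1.55). Col1a2 of fibroblasts and Wt1 of mesothelium (-2.72 and -4.10) had 3 and 3, and 7 and 2, reporter-free UMIs. Jchain, Mzb1, Col1a2 and Wt1 entered the test through the reporter-free sums alone, and with no filter on low counts Jchain and Mzb1 were called and Col1a2 and Wt1 were not (edgeR adjusted p = 0.906 and 0.276). Vim, Lgals1 and Zeb2 of the list of epithelial-mesenchymal transition (EMT) were at -2.07, -2.59 and -2.92, and 3 of 9 tested genes of that list were lower, against 1.7% of all genes. Lgals1 was lower in Foxn1Lin female only (-3.86, against 1.27 in Foxn1Lin male) and Zeb2 in Foxn1Lin male only (-4.75, against 0.28). Without the signatures Dcn, Lgals1 and Zeb2 stood at 0.25, -0.26 and 0.86 and did not pass, and Vim was the 1 gene of the EMT list that was still lower (-1.76, edgeR adjusted p = 0.0456).

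Several of the lowest genes rested on 1 reporter-free barcode of a library. Ctrb1, a pancreatic protease gene, had 0 against 6 and 16 against 34 UMIs, with each reporter-free count in 1 barcode (-5.77, edgeR adjusted p = 4.35e-11). Abca13 had 30 against 20 and 26 against 39 UMIs, of which 19 and 24 lay in 1 barcode (-3.92). Spink8, Gucy1b2, Sema3d, Prph, Nsun7, Ddr2 and Rarres2 were at -5.02 to -3.82. Of the 9 genes named here 7, all but Abca13 and Rarres2, entered the test through the reporter-free sums alone, and with no filter 6 of these 7 were called again and Prph was not (edgeR adjusted p = 0.0714).

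Other genes were lower through several reporter-free barcodes and without the signatures of other lineages when all strata were summed. They were chosen after their values were seen. Nrg1, an ErbB ligand, had 328 CPM in reporter-rich and 1233 CPM in reporter-free barcodes of Foxn1Lin female and 322 and 1444 CPM in Foxn1Lin male (-1.89, SE 0.38, edgeR adjusted p = 0.000297). The phosphodiesterase gene Pde4d had 393 and 1083 CPM, and 382 and 1917 CPM (-1.74, SE 0.38, edgeR adjusted p = 0.00115). Gramd1b and Dock10 were at -1.92 and -1.89. Within the rest none of the 4 passed (edgeR adjusted p = 0.963, 0.502, 0.744 and 0.768), and in Foxn1Lin female the reporter-rich level was the higher one for Nrg1 (202 against 17.9 CPM), Gramd1b (167 against 71.4) and Dock10 (137 against 35.7), with Pde4d at 522 and 518. Nrg1 was also high in the Aire stratum of reporter-rich barcodes, at 1194 and 858 CPM, against 42.5 and 0 CPM in the cortical stratum. In the Aire stratum of Foxn1Lin female 32 of its 73 reporter-free UMIs lay in 1 barcode. For Pde4d 26 of 53 did.

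The Aire stratum had enough barcodes of both classes in Foxn1Lin female only, 36 reporter-rich and 12 reporter-free. With 1 library no test was made, and 95% Poisson intervals are given. Aire had 736 CPM (603 to 890) and 583 CPM (388 to 843), and Ubd 3208 CPM (2922 to 3515) and 3146 CPM (2664 to 3690), with overlapping intervals. Egr1 had 722 CPM (590 to 875) against 167 (72.0 to 328), Krt8 1229 (1055 to 1424) against 667 (456 to 941) and Cd74 11090 (10553 to 11648) against 6917 (6193 to 7702). The intervals do not cover the spread between barcodes or animals. Median UMIs among 4000 were 2 and 0.5 for Egr1, 3 and 1.5 for Krt8 and 37 and 25 for Cd74, and without the highest barcode of each class the levels were 650 and 136, 1093 and 523, and 10350 and 5886 CPM.

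Esrrg had 382 CPM (288 to 497) in reporter-rich and 979 (719 to 1302) in reporter-free barcodes of that stratum, Pde4d 465 (361 to 591) and 1104 (827 to 1444), and Gramd1b 660 (534 to 806) and 1292 (990 to 1656). Without the highest barcode of each class they had 300 and 727, 364 and 614, and 486 and 1091 CPM. Nrg1, at 1194 (1023 to 1387) and 1521 (1192 to 1912), overlapped. Without the highest barcode of each class its order turned, to 1064 CPM in reporter-rich and 932 CPM in reporter-free barcodes. Ccl25, at 444 and 41.7 CPM, and Ctsl, at 396 and 104, lay outside each other's intervals, but 42 of the 64 and 31 of the 57 reporter-rich UMIs lay in 1 barcode each. Krt18, Tbata and Prss16 overlapped. In Foxn1Lin male the stratum had 1 reporter-free barcode.

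**Figure D5:**
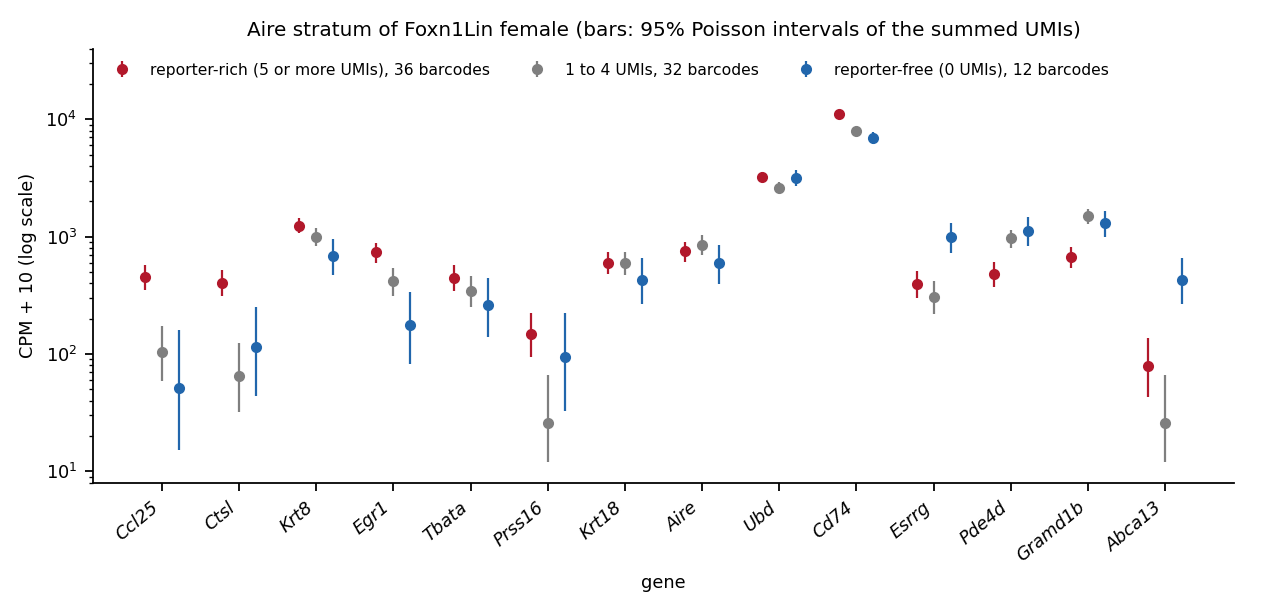
CPM + 10 on a log scale (vertical axis) of selected genes in the Aire stratum of Foxn1Lin female, with 95% Poisson intervals, for 36 reporter-rich and 12 reporter-free barcodes. Egr1, Krt8 and Cd74 lie higher in the reporter-rich barcodes, Esrrg, Pde4d and Gramd1b lower, and the intervals of Aire and Ubd overlap.

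The level of the reporter was then read as steps, as a description, since the same UMIs chose the classes and depth rose with it. Krt8 increased from 567 CPM at 0 reporter UMIs to 1156 at 1 to 4, 1630 at 5 to 9 and 3250 CPM at 40 or more in Foxn1Lin female, and from 596 to 777, 1297 and 3615 CPM in Foxn1Lin male. Aire was at 269 and 38.5 CPM at 0, at 364 and 239 CPM at 1 to 4, and at 0 and 16.4 CPM at 40 or more. Ccl25 reached 2312 CPM at 40 or more in Foxn1Lin female but was at 20.5 CPM in Foxn1Lin male, where its highest step was 221 CPM at 5 to 9. The order of Krt8 was therefore shared by the libraries and that of Ccl25 was not. Median depth was 9588 and 8613 UMIs in the lowest and 40522 and 29477 UMIs in the highest step.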

How the data were processed

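Droplet-based single-cell RNA sequencing was measured in 3 libraries, of which the 2 Foxn1Lin libraries were compared and the wild type was the library without a reporter. The deposited matrices hold whole UMI counts per gene and barcode, which the authors made with Cell Ranger 7.0.1 per the file headers on GRCm38 with transgene sequences added, giving 32285 genes and 8 transgenes. Gene positions follow GENCODE vM21. Called libraries held 33386621 to 61258534 UMIs.

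Each gated barcode was thinned to 4000 UMIs (seed 20) to match depth, and sums per library and class were tested with edgeR 4.0.16 in R 4.3.3 (quasi-likelihood, TMM, filterByExpr with a minimum count of 10, Benjamini-Hochberg, 0.05). Both classes of a number come from the same library, which was the block. The same test was run within each marker stratum that had at least 10 barcodes of each class in both libraries. The rule genes and the transgenes were left out of the counts of called genes. Fold changes per library are ratios of CPM with 0.5 UMIs added. Shares have 95% Clopper-Pearson and sums 95% Poisson intervals (scipy 1.17.1), and a count of 0 allows 3 counts. Doublets were scored with Scrublet in scanpy 1.11.5 and kept, and the highest 3.9% of scores were removed in 1 alternative.

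Named genes were the 12 highest and 12 lowest log2 changes among called genes with the same sign in both libraries and at least 20 UMIs, leaving out mitochondrial, ribosomal, hemoglobin, immunoglobulin, sex-linked and predicted genes, and the called members of the gene lists. The members and lists were chosen with earlier results of these data known. On simulated sums of 7707 genes, the test recovered 39.8% of 4-fold and 98.7% of 16-fold changes and called 0.0133% of unchanged genes. The simulated sums had 1 dispersion for all genes (0.071) and no spread between barcodes or difference in makeup. These rates therefore do not cover genes whose reporter-free UMIs lie in 1 barcode. DESeq2 1.42.0 and other limits, filters, depths and sets of barcodes were tried as alternatives. The authors' clusters were not used.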

Additional observations from a re-analysis of the deposited data

Results flagged for a closer look

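UMIs were counted for a second transgene entry outside the main measurement. CreER-WPRE had 6 UMIs in 6 called barcodes of Foxn1Lin male, of which 5 UMIs were in 5 gated barcodes, and 0 in Foxn1Lin female and in the wild type. The entry shares WPRE with the reporter entry tdT-WPRE, which had 15046 UMIs in the called barcodes of Foxn1Lin male. The entries Cre, CreER and iCreER had 0 UMIs there. The counts do not show that a CreER allele was present, and their cause was not tested.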

How the results depend on the processing

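The counts of higher and lower genes (87 and 144) depended on the processing. Without the library as replicate block they were 0 and 1, with DESeq2 7 and 25, and with no filter on low counts 75 were lower. With reporter-rich from 10 UMIs they were 21 and 68, and with 1 to 4 UMIs against none 15 and 27. Classes on thinned reporter counts gave 143 higher. They were 43 and 83 without the highest doublet scores, and 6 and 24 without any barcode with a UMI of Ptprc, Cd3e, Cdh5, Col1a1 or Acta2. Settings added after seeing the data gave 50 and 51 without signatures of other lineages, 27 and 57 without parathyroid signatures, and 46 higher with reporter-rich barcodes drawn to the depth bins of the reporter-free. These settings also change the barcodes and genes that enter, and the cause was not tested. The other counts stayed within 1.5 times, but the genes differed: of the 87 and 144, another thinning seed called 55 and 96 again, and full counts 47 and 70. Within the rest stratum, where 1 gene was higher and 8 lower, the counts were 70 and 64 with no filter on low counts, 0 and 1 without the replicate block (170 and 177 at an unadjusted p under 0.05), 1 and 11 with DESeq2, and 3 and 7 without signatures, all added after seeing the data.

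Reporter-rich shares in Foxn1Lin female and Foxn1Lin male were 43.1% and 65.4% from 10 UMIs, 79.1% and 90.5% from 3 UMIs, 58.6% and 78.4% with Epcam from 1 UMI and 72.4% and 88.5% with Epcam from 4 UMIs, and 78.4% in Foxn1Lin male on thinned counts. Reporter-free shares were 16% and 11.4% on thinned counts, 13.3% and 8.25% with Epcam from 1 UMI, and in Foxn1Lin female 4.85% with Epcam from 4 UMIs and 4.55% without signatures. Leaving out 1 library, the pooled shares of 75.7% and 5.42% ranged from 66.9% to 84.1% and from 3.51% to 7.43%. Log2 changes reversed for Bin1 (-0.36) and Fabp9 (-0.52) with classes on thinned counts, for Dcn (0.56) and Lgals1 (0.39) without the UMIs of the 5 lineage genes, for Dcn (0.25) and Zeb2 (0.86) without signatures, for Egr1 (-0.11) and Sdc4 (-0.11) with 1 to 4 UMIs against none, for Lgals1 (1.27 without Foxn1Lin female, -3.86 without Foxn1Lin male) and for Zeb2 (0.28 without Foxn1Lin male, -4.75 without Foxn1Lin female). A library left out leaves no residual degree of freedom, so those ratios have no test. The planned draw of reporter-free barcodes to equal depth was not run, since they were fewer in every bin. With 26 and 13 reporter-free barcodes, genes of low level were beyond the depth of these sums.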
